A study of Mus musculus with 8 samples.

Results

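The nuclear genes for the machinery of oxidative phosphorylation were followed in CD45+ cells from healing skin wounds. A gene was taken as a member where its symbol starts with Nduf, Uqcr, Cox4i, Cox5, Cox6, Cox7, Cox8 or Atp5, or is Sdha, Sdhb, Sdhc, Sdhd, Cyc1 or Cycs. This rule found 92 of the 21755 genes named in the deposited tables. They were 36 genes of complex I, 4 of complex II, 9 of complex III, cytochrome c (Cycs), 18 of complex IV and 15 of complex V. The 18 of complex IV include Cox7a2l, a factor in the joining of complexes III and IV. The symbols also caught 9 genes that were kept apart from the complexes. They are the 8 Ndufaf genes, which assist the assembly of complex I, and Atp5s, a factor associated with the ATP synthase. Cox8c was not analysed here.

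Oxidative phosphorylation makes ATP in mitochondria. Complex I takes electrons from NADH and complex II takes them from succinate, complex III passes them through cytochrome c to complex IV, which reduces oxygen, and complex V uses the proton gradient built on the way to make ATP. Most subunits are encoded in the nucleus and imported, and the rest are encoded in mitochondrial DNA. Neutrophils are known for relying mostly on glycolysis, whereas osteoclasts, large cells of the myeloid line that resorb bone, are known for being rich in mitochondria.

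Diabetes had been induced in male C57BL/6J mice with streptozotocin (STZ, a toxin of pancreatic beta cells) at 120 mg/kg, given at 4 weeks of age, and mice with a blood glucose of at least 16.5 mmol/L were used. Control mice of the same strain carried the same full-thickness wound on the back and received no STZ. Wounds were taken on days 1, 3, 5 and 7, cells from 5 mice were pooled and sorted for CD45, and 1 library was made for each of the 2 groups on each of the 4 days. Every test below therefore rests on the spread between pools of mice, 8 pools in most tests and 4 in that of osteoclast-like cells, not between single animals, and no day can be tested on its own.

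The libraries held 19236522 to 33842509 unique molecular identifiers (UMIs, tags that count single mRNA molecules), and 35158 of 38959 barcodes were kept as cells. Control day 5 stood apart: 71.4% of its barcodes were kept, the median cell held 8234 UMIs against 2575 to 5219 in the other libraries, and mitochondrial transcripts took 3.15% of its UMIs against 1.69% to 2.46%. Cells were clustered without the members and named by marker genes. The classes held 13861 neutrophil-like, 5656 macrophage-like, 4663 monocyte-like, 2794 dendritic-like, 2471 T cell-like, 541 NK cell-like, 397 osteoclast-like and 149 mast cell-like cells, and 51 fibroblast-like cells were present despite the sort. The 4575 cells that stayed unnamed, 9.08% to 13.6% of a diabetic library and 5.11% to 27.7% of a control library, held a median of 1057 UMIs. The names are rebuilt from the counts and may differ from those of the study. Barcodes are renumbered in the deposited tables, so that barcodes shared between libraries could not be counted.

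Members together took 2070200 UMIs. Levels are given in CPM, the UMIs of a gene per 1000000 nonmitochondrial UMIs of the same cells. A UMI tags 1 end of an mRNA, so that levels were not scaled by gene length. Of the 92 members, 58 had over 10000 UMIs, 90 were found in all 8 libraries, and the 10 most abundant members took 37.5% of the member UMIs. The member with the most UMIs was Cox4i1 (104128 UMIs, complex IV), found in 60.2% of cells. Atp5g3, which encodes the c subunit of the membrane ring of complex V, had 90336 UMIs. Uqcrh of complex III had 63272, Ndufa2 of complex I 53975, Sdhd, a membrane anchor of complex II, 25938, and the electron carrier Cycs 12970. Ndufaf8 led the assembly factors with 4200 UMIs and Atp5s had 372. At the other end were Cox4i2 with 66 UMIs and Cox8b with 6, which are the minor isoforms of Cox4i1 and Cox8a.

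The start regions of the members were read from the RefSeq promoter windows of build GRCm38.p6, since members that differed together between cell classes are described below. A window, from 250 bases before to 50 bases after a transcript start, was held for 76 of the 92 members. In them 4 strings of letters, those bound by the mitochondrial regulators NRF1 (GCGCATGCG), GABP (CCGGAAGT), YY1 (AAGATGGCG) and ERR (TCAAGGTCA), were searched on both strands. The NRF1 string stood in 11 of 76 members (14.5%), in 4.31% of the 8694 genes with a window that were tested in osteoclast-like cells and in 1.95% of all 27025 genes with a window. The YY1 string stood in 8 members (10.5%, against 3.89% and 1.64%), the ERR string in 2 (2.63%, against 0.322% and 0.466%) and the GABP string in 5 (6.58%, against 9.78% and 4.31%). At least 1 of the strings was present in 25 members (32.9%), against 17.2% of the tested genes and 7.93% of all genes. A match is a run of letters and not a shown binding site. Shown here are the 150 bases before the start of 3 members that are named in the comparisons below, written 5′ to 3′ on the strand of the gene, with the NRF1 string or its reverse complement in capitals. The capitals begin 61 bases before the start in Cycs, 113 in Ndufaf4 and 60 in Ndufa11, and in Ndufaf4 and Ndufa11 both orientations overlap by all but 1 base.
Cycs (cytochrome c), chr6:50566570-50566719, minus strand: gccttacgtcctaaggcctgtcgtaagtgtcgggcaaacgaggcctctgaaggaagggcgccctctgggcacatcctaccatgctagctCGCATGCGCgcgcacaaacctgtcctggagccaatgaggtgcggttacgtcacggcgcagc
Ndufaf4 (complex I assembly), chr4:24897933-24898082, plus strand: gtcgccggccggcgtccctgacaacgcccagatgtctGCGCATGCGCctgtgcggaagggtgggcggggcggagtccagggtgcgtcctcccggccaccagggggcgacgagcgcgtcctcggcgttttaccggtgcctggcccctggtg
Ndufa11 (complex I), chr17:56717612-56717761, plus strand: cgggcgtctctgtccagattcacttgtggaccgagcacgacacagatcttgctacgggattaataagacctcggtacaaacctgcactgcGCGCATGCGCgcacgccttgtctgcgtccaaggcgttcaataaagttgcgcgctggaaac

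The first comparison was between cell classes. The summed level of the 92 members was highest in osteoclast-like cells and lowest in neutrophil-like cells. In osteoclast-like cells it was 29391 CPM in diabetic day 3 and 29596, 30435 and 28095 in control days 3, 5 and 7, the 4 libraries with at least 20 such cells. The median over 8 libraries was 12618 in T cell-like cells (10521 to 15783), 12310.0 in dendritic-like cells (11795 to 13763), 11182 in macrophage-like cells (9276 to 12454) and 10595 in monocyte-like cells (9614 to 12156). In NK cell-like cells it was 13238 (12337 to 15922, 6 libraries), and in mast cell-like cells it ran from 5341 to 9619 (4 libraries). In neutrophil-like cells the median was 5241, with a range from 2591 to 10475. Osteoclast-like cells thus lay above every library of every other class that was summed, while the ranges of T cell-like, dendritic-like, macrophage-like and monocyte-like cells overlapped.

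**Figure D1:**
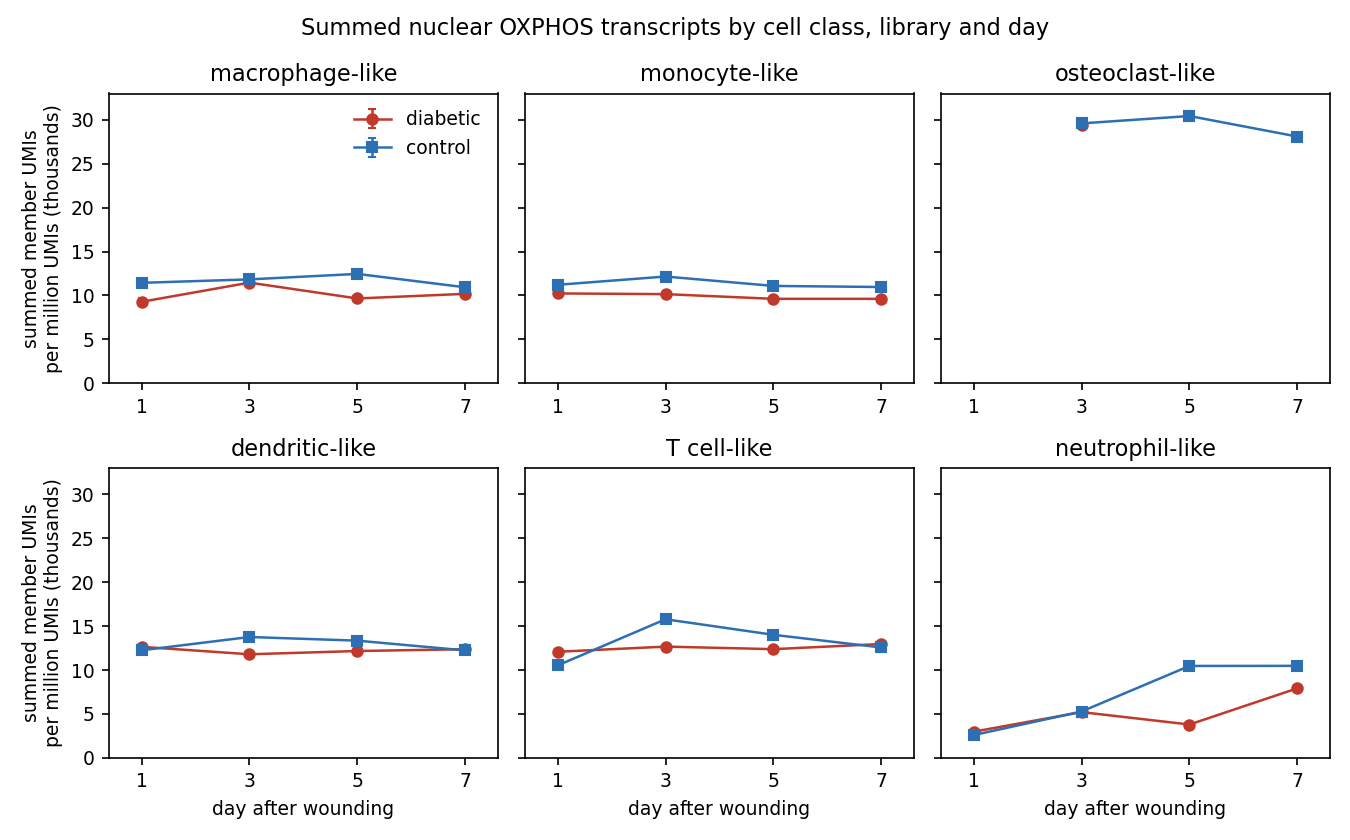
Summed level of the members (vertical axis, in units of 1000 CPM) by day after wounding (horizontal axis) in 6 cell classes, with red circles for diabetic and blue squares for control libraries and bars for the exact 95% Poisson interval, which covers counting error only. Osteoclast-like cells sit between 28095 and 30435 CPM, and neutrophil-like cells spread from 2591 to 10475.

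Osteoclast-like cells were set against macrophage-like cells of the same libraries. Nearly all members were higher in osteoclast-like cells. Summed members were 2.44 to 2.57 times as high (median 2.53, n = 4 libraries), whereas summed ribosomal protein transcripts were 1.69 to 1.94 times, transcripts of the subunits encoded in mitochondria 1.51 to 1.86 times and glycolytic transcripts 1.48 to 1.90 times as high. In the quasi-likelihood test of edgeR with the library as a block, 84 of 89 members tested rose and 1 fell at an adjusted p of 0.05, where 26.0% of all 10837 genes tested rose and 29.2% fell. The median member rose by 1.12 on the log2 scale, against -0.03 for all genes. In CPM, 86 of the 89 members tested were higher in each of the 4 libraries, as were 38.4% of all genes tested, and for 81 the lowest osteoclast-like value was above the highest macrophage-like value, as for 29.1% of all genes. When each cell was named singly by its own markers in place of its cluster, 55 of 86 members tested were called, all higher, where 14.7% of all genes were called higher, and the median summed level of osteoclast-like cells was 17674 CPM. Cox4i2, Cox8b and Ndufa4l2 had too few UMIs to be tested and had 0 UMIs in osteoclast-like cells.

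The cells behind this class carried the markers of osteoclasts. Their leading genes were Ctsk and Acp5, enzymes of bone resorption, Atp6v0d2, a proton pump subunit, Mmp9 and Nfatc1, together with the cell cycle genes Birc5 and Ube2c. The osteoclast markers summed to 12448, 5436, 14817 and 12035 CPM in diabetic day 3 and control days 3, 5 and 7, against 329, 305, 1030 and 570 in the macrophage-like cells. The macrophage markers summed to 4313, 3162, 5997 and 7649 CPM in osteoclast-like cells and to 20628 to 26149 in macrophage-like cells. The median osteoclast-like cell held 22199 UMIs and the median macrophage-like cell 8966. Ctsk and Atp6v0d2 were also among the leading genes of an unnamed cluster of 1714 cells, with a median of 488 UMIs. At a resolution of 1.6, an unnamed cluster of 855 cells was led by Gm26917, Ctsk, Atp6v0d2 and Acp5, with a median of 469 UMIs. Shallow cells with these markers thus lay outside the class and its cell counts, and their part in its level was not tested. Doublets were not removed in the main analysis, because the caller marked only 0.193% of cells. Leaving out the marked cells was an alternative, and the part of doublets that were not marked was not tested. Diabetic day 5 and day 7 held 11 and 2 osteoclast-like cells and were not used, so that only day 3 offers a pair of groups. The summed level was then 29391 CPM (95% counting interval 29058 to 29728) in diabetic and 29596 (29239 to 29956) in control wounds, and these intervals overlapped.

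All 36 complex I genes rose in osteoclast-like cells, by a median of 1.07 on the log2 scale. Ndufb6, an accessory subunit, was at 84.2, 134, 122 and 118 CPM in osteoclast-like cells of diabetic day 3 and control days 3, 5 and 7, and at 26.8, 32.1, 35.1 and 25.3 in macrophage-like cells. It had the largest rise in complex I (log2 fold change 1.68 ± 0.13, SE; adjusted p = 9.66e-09, edgeR). Ndufs1, the largest subunit of the core that carries iron-sulphur clusters, was at 156, 105, 137 and 158 against 43.5, 30.1, 44.1 and 37.4 (1.57 ± 0.12; adjusted p = 7.22e-09). For both genes every osteoclast-like library lay above every macrophage-like one. Ndufv1, which binds NADH, rose by 1.53 ± 0.13 and Ndufb8 by 1.11 ± 0.11. Ndufa2, the complex I gene with the most UMIs, differed less, with 468, 547, 505 and 513 against 293, 309, 304 and 306 (0.49 ± 0.09; adjusted p = 0.000193).

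The 4 complex II genes rose by a median of 1.47. Complex II is also an enzyme of the tricarboxylic acid (TCA) cycle. Its flavoprotein Sdha was at 365, 299, 338 and 340 CPM in osteoclast-like cells and at 83.1, 85.4, 111 and 98.1 in macrophage-like cells (1.57 ± 0.11; adjusted p = 1.18e-09, edgeR). The iron-sulphur protein Sdhb rose by 1.45 ± 0.09, and the membrane anchors Sdhc and Sdhd by 1.26 ± 0.11 and 1.49 ± 0.10. Summed over the complex, levels were 3.02 to 3.64 times those of macrophage-like cells.

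Complex III and cytochrome c held the largest single rise. Cyc1, the cytochrome c1 subunit that hands electrons to cytochrome c, was at 143, 128, 164 and 175 CPM against 20.2, 32.3, 35.6 and 26.6, and its log2 fold change of 2.17 ± 0.14 (adjusted p = 8.07e-10, edgeR) was the largest among members. Cycs itself was at 165, 197, 244 and 213 against 49.0, 51.1, 58.4 and 51.8 (1.71 ± 0.11; adjusted p = 6.27e-10). The 9 genes of complex III all rose, with a median of 1.39. The core protein Uqcrc2 was at 97.1, 69.8, 97.7 and 95.5 against 23.4, 20.2, 25.6 and 21.7 (1.73 ± 0.13; adjusted p = 5.63e-09). Uqcrc1 rose by 1.39 ± 0.10, the Rieske protein Uqcrfs1 by 1.35 ± 0.10, and the hinge protein Uqcrh, the most abundant of the complex, by 0.73 ± 0.09.

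Among the 5 complexes, complex IV was the only one in which not every tested gene rose. Of 15 genes tested, 13 rose and Cox6a2 fell, and the median was 0.99. Cox4i1, the ubiquitous form of subunit 4, rose by 0.78 ± 0.09 and stood at 1184 to 1336 CPM in osteoclast-like cells, against 566 to 636 in macrophage-like cells of the same libraries. Ndufa4, named for complex I and now placed in complex IV, rose most in the complex (1.47 ± 0.10; adjusted p = 1.09e-09, edgeR). Cox6a1 rose by 0.99 ± 0.09, Cox6b1 by 0.93 ± 0.09, Cox7a2 by 1.11 ± 0.09, Cox7a1 by 1.02 ± 0.26 and Cox8a by 1.04 ± 0.09. Cox7a2l, a factor in the joining of complexes III and IV, differed least of those that rose (0.29 ± 0.10; adjusted p = 0.0168). Cox6a2, the isoform of heart and skeletal muscle, had 14 UMIs in all osteoclast-like cells, at 0, 4.50, 1.18 and 2.70 CPM against 3.44, 6.36, 5.96 and 4.87 in macrophage-like cells. Its fall of 1.92 ± 0.51 (log2; adjusted p = 0.00363) was not called without control day 5 (adjusted p = 0.132). Cox6b2, the isoform of testis, was at 2.86 to 4.50 CPM in osteoclast-like cells, and its difference was not called (-0.40 ± 0.41; adjusted p = 0.437).

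All 15 complex V genes rose, by a median of 1.17. Atp5g3 was at 1924, 2105, 1942 and 1671 CPM in osteoclast-like cells and at 470, 498, 561 and 405 in macrophage-like cells (1.73 ± 0.09; adjusted p = 7.54e-11, edgeR). Atp5g1, Atp5g2 and Atp5g3 encode the same mature c subunit, and they differed in the rise: Atp5g1 rose by 1.56 ± 0.10 and the scarce Atp5g2 by 1.06 ± 0.18. Atp5o, a subunit of the stalk, was at 721, 678, 832 and 717 against 193, 197, 232 and 162 (1.67 ± 0.10; adjusted p = 2.71e-10). The catalytic subunits Atp5a1 and Atp5b rose by 1.41 ± 0.09 and 1.66 ± 0.09. Of the last 500 bases of Atp5h, Atp5l and Ndufs3, 53.1%, 75.2% and 53.9% are shared with transcripts of other genes as runs of 50 bases, so that counts of these 3 genes are uncertain.

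Of the 8 assembly factors, 6 rose. Ndufaf4 was at 62.4, 69.8, 58.6 and 51.3 CPM against 11.7, 13.8, 17.8 and 10.7 (1.86 ± 0.17; adjusted p = 5.12e-08, edgeR), the second largest rise among members. Ndufaf5, which modifies a complex I subunit, was at 16.8, 13.5, 23.6 and 17.1 against 4.81, 4.15, 5.13 and 5.13 (1.67 ± 0.25; adjusted p = 2.00e-05). Ndufaf3 (0.23 ± 0.20; adjusted p = 0.352) and Ndufaf7 (-0.56 ± 0.32; adjusted p = 0.143) were not called, and neither was Atp5s (0.64 ± 0.44; adjusted p = 0.227).

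**Figure D2:**
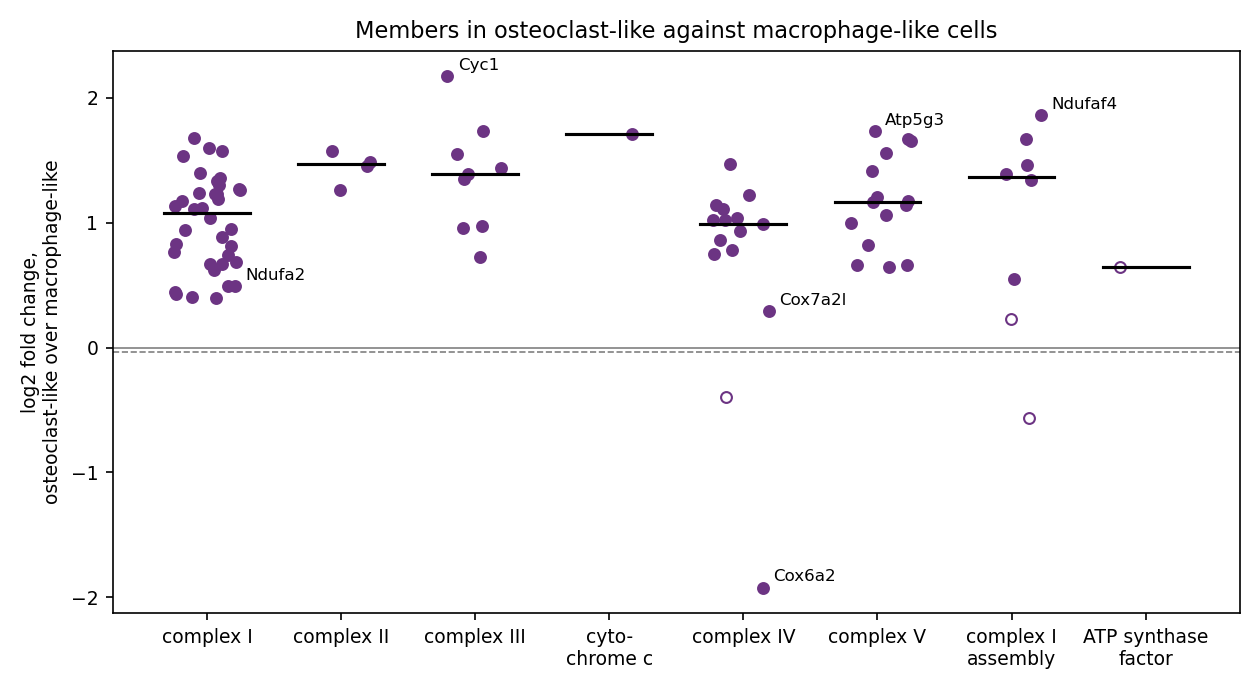
Log2 fold change of each tested member in osteoclast-like over macrophage-like cells (vertical axis, edgeR, 4 libraries of each class) by complex (horizontal axis), with filled points past an adjusted p of 0.05, open points not past it, a black line at the median of each complex and a dashed line at the median of all genes (-0.03). Cyc1 stands highest at 2.17 and Cox6a2 lowest at -1.92.

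Other lists of mitochondrial metabolism were read from the same fit, in which 26.0% of all genes tested rose and 29.2% fell. All 16 enzymes of the TCA cycle rose, with Idh3a, a subunit of isocitrate dehydrogenase, at 2.69 ± 0.13 and malate dehydrogenase Mdh2 at 2.10 ± 0.10 (adjusted p = 4.11e-11 and 3.49e-11, edgeR). Of 11 regulators of mitochondrial biogenesis tested, 4 rose, among them the coactivator Ppargc1b by 3.32 ± 0.18 (adjusted p = 7.32e-11) and the mitochondrial transcription factor Tfam by 1.11 ± 0.17, while Nrf1 (-0.03 ± 0.20; adjusted p = 0.910) and Esrra (0.21 ± 0.19; adjusted p = 0.375) were not called. Of 12 genes for assembly of complex IV, 10 rose and Surf1 fell. Of 8 genes for carriers and uncoupling, 7 rose, with the ADP/ATP carrier Slc25a4 at 1.89 ± 0.10, and the uncoupling protein Ucp2 fell by 0.40 ± 0.09. Glycolysis was split, with 8 of 17 genes higher and 5 lower, among them Pfkfb3 (-2.01 ± 0.13) and the glucose transporter Slc2a1 (-1.04 ± 0.13). Of 83 ribosomal protein genes tested, 79 rose, with a median of 0.65.

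Macrophage-like cells were set against neutrophil-like cells of the same 8 libraries. Summed members were 1.04 to 4.41 times as high in macrophage-like cells (median 2.22), and the ratio was at or below 1.29 in diabetic day 7, control day 5 and control day 7. In these 3 libraries the macrophage markers summed to 10484, 8886 and 12193 CPM in neutrophil-like cells, against 533 to 3148 in the other 5, and their part in the ratio was not tested. In edgeR with the library as a block, 39 of 89 members tested were higher and 3 lower, where 23.6% of all 11693 genes tested were higher and 24.9% lower. The median log2 fold change was 0.47 for members and 0.11 for all genes. Complex I had 19 of 36 genes called higher, complex V 8 of 15, complex IV 7 of 15, complex III 3 of 9 and complex II 2 of 4. The glycolytic genes stood the other way, with 14 of 17 lower in macrophage-like cells, and 67 of 85 ribosomal protein genes were higher. The number of members called was 15 without day 1, 3 without day 3, 19 without day 5 and 53 without day 7, with 44.3%, 25.6%, 36.5% and 56.6% of all genes called in the same fits. It ranged from 19 to 45 when each library was left out in turn. For those fits the share of all genes called is not given here, so that the range shows only the dependence on libraries. With cells named singly, 76 of 89 members and 73.5% of all genes were called.

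Ndufa11, an accessory subunit in the membrane arm of complex I, was at 2.88, 3.74, 2.99 and 8.14 CPM in neutrophil-like cells of diabetic days 1, 3, 5 and 7 and at 2.93, 3.36, 16.7 and 11.3 in control. In macrophage-like cells it was at 10.3, 22.0, 13.5 and 11.8 in diabetic and 40.8, 23.5, 16.1 and 16.6 in control (log2 fold change 1.04 ± 0.31; adjusted p = 0.0118, edgeR), and control day 5 was the only library in which neutrophil-like cells were higher. The other members named for the size of their rise were Cox7a1 (1.22 ± 0.43), Ndufa5 (1.03 ± 0.26), Ndufc2 (0.99 ± 0.25), Ndufb5 (0.97 ± 0.25), Ndufa9 (0.86 ± 0.28), Sdhc (0.82 ± 0.20) and Ndufa4 (0.82 ± 0.24). All of these but Cox7a1 and Sdhc carry the Nduf symbol. Cox7a1 was not called without diabetic day 5 or without control day 1, 3 or 5 (adjusted p = 0.0642 to 0.0971), and none of the members named here for a rise was called without day 3 except Ndufb5. Cox7a1 was also not called without day 1 (0.0527), without day 5 (0.202) or at a finer clustering (0.0543). Ndufa9 was not called without the library diabetic day 3 (0.0521). For Cox8a and Atp5l the direction turned with the scaling. In CPM macrophage-like cells were higher in 7 of 8 libraries for Cox8a (252 to 381 against 185 to 399) and in 5 of 8 for Atp5l (10.8 to 35.5 against 15.1 to 28.4), whereas the fitted log2 fold changes, which are scaled for library composition, were -0.49 ± 0.14 (adjusted p = 0.0108, edgeR) and -0.49 ± 0.19 (adjusted p = 0.0408). Atp5l was not called without any one of the 4 days (adjusted p = 0.0557 to 0.150) or of 7 of the 8 libraries, diabetic day 3 excepted (0.0504 to 0.113), and Cox8a was not called without day 3 (0.0708). With no filter on low counts neither was called (0.0565 for Cox8a and 0.092 for Atp5l), and Atp5l was not called at a finer clustering (0.0656).

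Ndufaf7, a methyltransferase that modifies a core subunit of complex I, departed from the other members. It was at 34.2, 39.5, 27.6 and 16.9 CPM in neutrophil-like cells of diabetic days 1, 3, 5 and 7 and at 20.4, 27.7, 15.7 and 10.9 in control. In macrophage-like cells it was at 0, 9.39, 6.06 and 7.06 in diabetic and 11.7, 5.25, 6.59 and 6.10 in control. The neutrophil-like cells were higher in each of the 8 libraries, and the fall to macrophage-like cells was 2.25 ± 0.30 on the log2 scale (adjusted p = 3.22e-05, edgeR). Over the 54 pairs of library and class, the level of Ndufaf7 had a Pearson correlation of -0.21 with the summed level of the other members, whereas the median member had 0.870. These points share libraries and depth, so that the value is a description only.

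Between macrophage-like and monocyte-like cells 5 members were called, a number that varied with how cells were chosen and named. The ratio of summed levels ran from 0.907 to 1.13 over the 8 libraries (median 1.01). Of 90 members tested in edgeR, 2 were higher and 3 lower in macrophage-like cells, where 11.4% of all 11035 genes tested were higher and 14.1% lower. Other cell filters gave 10 and 12 calls, members among the clustering genes 13, cells named singly 11, and the clusters led by Gm26917 named by their markers 20, with 26.5% to 31.0% of all genes called in these 5 fits. A finer clustering gave 3 calls (27.2% of all genes), and leaving out each day gave 3 to 8. The share of all genes called without each day is not given here, so that this range is not compared with it. Cycs was at 85.3, 58.2, 67.9 and 79.7 CPM in monocyte-like cells of diabetic days 1, 3, 5 and 7 and at 113, 66.5, 82.5 and 64.1 in control. In macrophage-like cells it was at 97.7, 49.0, 66.7 and 52.9 in diabetic and 58.2, 51.1, 58.4 and 51.8 in control, lower in every library but diabetic day 1 (-0.50 ± 0.11; adjusted p = 0.00184). Uqcrfs1 was at 115 to 166 CPM in monocyte-like cells (median 156) and at 87.4 to 138 in macrophage-like cells (median 111), and fell by 0.48 ± 0.11 (adjusted p = 0.00168). These ranges overlapped.

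The 3 other members called between macrophage-like and monocyte-like cells were scarce. Ndufa4l2, a relative of Ndufa4 that is known to respond to low oxygen, had 45 UMIs in monocyte-like and 21 in macrophage-like cells (-3.28 ± 0.79; adjusted p = 0.00406, edgeR). Control day 5 stood out in monocyte-like cells at 16.7 CPM, with 0 to 3.66 in the other 7 libraries. DESeq2 did not call it (adjusted p = 0.177), nor was it called with members among the clustering genes (0.0556). Cox6a2 was at 0 to 2.17 CPM in monocyte-like cells and 0 to 6.36 in macrophage-like cells (1.75 ± 0.53; adjusted p = 0.0188), and was not called without control day 3 or without control day 5 (adjusted p = 0.0985 and 0.0554), with cells named singly (0.0552) or with the Gm26917 clusters named by markers (0.0702). Ndufaf8, the assembly factor with the most UMIs, was at 10.8 to 25.8 against 21.5 to 56.6 (0.47 ± 0.14; adjusted p = 0.0165), and was not called without diabetic day 3 or without diabetic day 7 (adjusted p = 0.0596 and 0.0538). Its log2 fold change was 0.37 without the library block (adjusted p = 0.116), 0.33 with any mitochondrial share (0.0762), 0.29 with cells named singly (0.117) and 0.25 at a finer clustering (0.145).

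The isoforms of complex IV were compared across classes by their share of UMIs. Cox4i2 took 0.0633% of the UMIs of Cox4i1 and Cox4i2, and Cox8b 0.00902% of those of Cox8a and Cox8b. Cox7a1 took 3.46% of the UMIs of Cox7a1 and Cox7a2, with 2.17% in neutrophil-like and 4.53% in macrophage-like cells. Cox6a2 took 0.837% of the UMIs of Cox6a1 and Cox6a2 over all cells, 2.22% in dendritic-like cells, 1.29% in macrophage-like cells and 0.175% in monocyte-like cells. Its level in dendritic-like cells was 3.61, 3.77, 5.12 and 8.49 CPM on diabetic days 1, 3, 5 and 7 and 18.8, 20.6, 0.556 and 16.9 on control days 1, 3, 5 and 7. Control day 5 was the lowest of all, and the other control libraries were above the diabetic ones. The difference between groups was not called (-1.15 ± 0.60; adjusted p = 0.864, edgeR). Cox6b2 took 2.75% of the UMIs of its pair in dendritic-like cells, at 9.38 to 20.6 CPM, and 0.279% to 0.929% in the other 5 classes compared. The exons of Cox6a2 overlap Itgad on the other strand and those of Ndufa4l2 overlap Shmt2, and whether counting used the strand is not given in the sources used here. Other members also overlap a gene on the other strand, among them Cox4i1 (Emc8), Ndufs1 (Eef1b2), Ndufb6 (Smim27), Ndufa11 (Vmac) and Ndufaf3 (Impdh2). Atp5o overlaps Donson on the same strand.

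**Figure D3:**
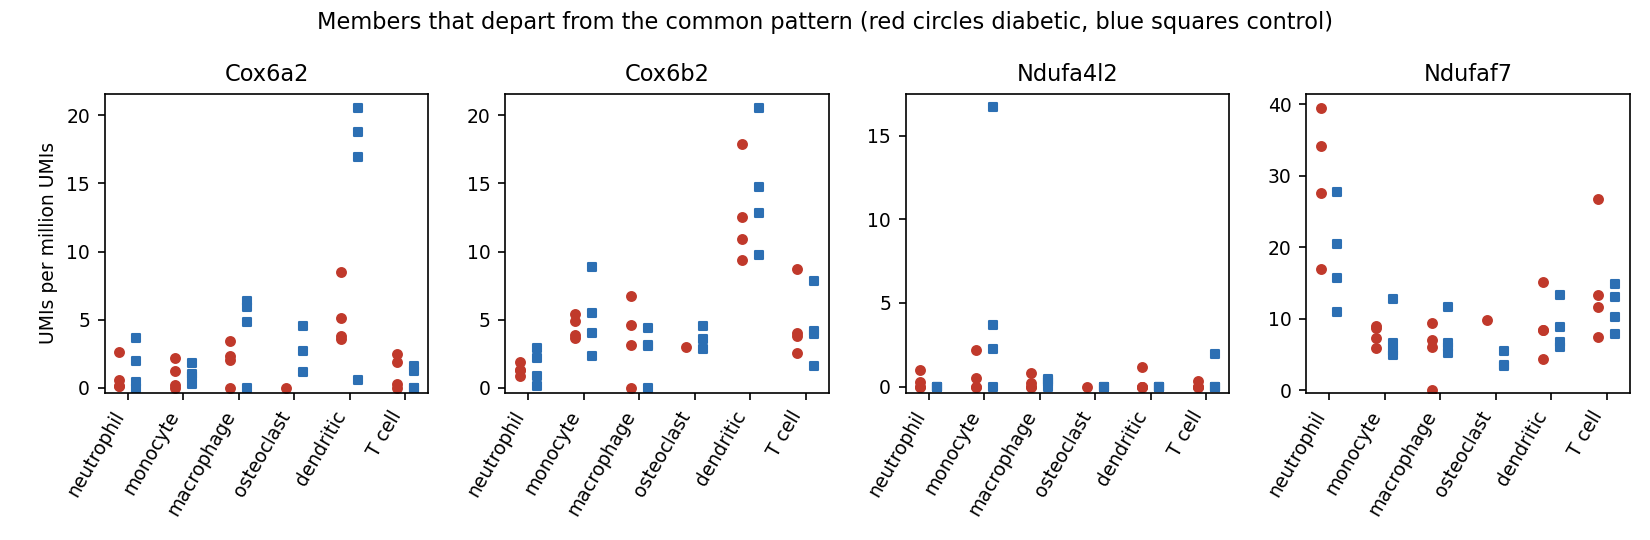
Level in CPM (vertical axis) of Cox6a2, Cox6b2, Ndufa4l2 and Ndufaf7 in 6 cell classes (horizontal axis), with 1 point per library with at least 20 cells of the class (red circles diabetic, blue squares control). Ndufaf7 is highest in neutrophil-like cells (10.9 to 39.5), Cox6b2 in dendritic-like cells (9.38 to 20.6), and Ndufa4l2 reaches 16.7 in monocyte-like cells of control day 5 only.

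Diabetic and control wounds were then compared within each class. In macrophage-like cells the summed members were lower in the diabetic library on each of the 4 days. They were at 9276, 11460.4, 9656 and 10184 CPM on diabetic days 1, 3, 5 and 7, against 11437, 11830.0, 12454 and 10927 in control. The ratio was 0.811 (95% counting interval 0.767 to 0.858) on day 1, 0.969 (0.956 to 0.981) on day 3, 0.775 (0.762 to 0.789) on day 5 and 0.932 (0.924 to 0.940) on day 7. Day 1 rests on 48 diabetic and 69 control cells. In monocyte-like cells the sums were also lower on all 4 days, at 10230, 10149, 9616 and 9614 against 11211, 12156, 11085 and 10960.3, with ratios of 0.912, 0.835, 0.867 and 0.877. These intervals cover the counting of molecules and not the spread between pools of mice.

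The cells behind a class changed between days. Cells of 1 macrophage-like cluster, led by Gdf15 and Igf1, made up 83.6% of the class in diabetic day 7 and 86.6% in control day 7, and another, led by Ms4a7 and Gpnmb, made up 65.7%, 77.0%, 67.1% and 72.8% in diabetic day 3, control day 3, diabetic day 5 and control day 5. Within clusters, summed members were lower in the diabetic library in 9 of 9 pairs of cluster and day for macrophage-like cells and in 9 of 9 for monocyte-like cells. Clusters of the same day share their libraries, so that these pairs are not independent. The count was 7 of 7 in unnamed, 2 of 2 in NK cell-like, 1 of 1 in osteoclast-like and 6 of 8 in T cell-like cells. It was 5 of 8 in dendritic-like, 8 of 15 in neutrophil-like and 0 of 2 in mast cell-like cells. The mitochondrially encoded subunits were lower in diabetic libraries on 2 of 4 days in either class. Ribosomal protein transcripts were lower on 4 of 4 days in macrophage-like cells and on 3 of 4 in monocyte-like cells. The 10 neutrophil markers went the other way. In monocyte-like cells they summed to 4947, 3617, 2031 and 1993 CPM on diabetic days 1, 3, 5 and 7 against 4285, 1784, 864 and 1842 in control, higher in diabetic on 4 of 4 days. In macrophage-like cells they summed to 4319, 2813, 1690.02 and 1510 against 3642, 1642, 388 and 1637, higher on days 1, 3 and 5. The part of these transcripts in the result was not tested.

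In the test across days, 0 of 89 members were called in macrophage-like cells (edgeR, day as a block, n = 4 libraries in each group), where 0.0472% of all 10587 genes were called. At an unadjusted p under 0.05 there were 9 members (10.1%, against 7.89% of all genes), and DESeq2 called 0 of the 72 members to which it gave an adjusted p (0.587% of all genes), with 7 at an unadjusted p under 0.05 (7.97% of all genes). The median log2 fold change was -0.18 for members and -0.01 for all genes, and 13 of 89 members were positive (14.6%, against 48.5% of all genes). The ribosomal protein genes had a median of -0.12 with 7 of 83 positive. In monocyte-like cells 0 of 87 members were called, against 0.0194% of all genes, with 5 at an unadjusted p under 0.05 (5.75%, against 7.82%), and DESeq2 called 0 of 59 (0.931% of all genes), with 1 at an unadjusted p under 0.05 (10.7% of all genes). There the median was -0.16 for members and 0.00 for all genes, and 11 of 87 were positive (12.6%, against 49.4%).

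Single members show the size of these differences. Cox4i1 in macrophage-like cells was at 293, 598, 521 and 522 CPM on diabetic days 1, 3, 5 and 7 and at 457, 636, 633 and 566 in control, lower in diabetic on every day (-0.25 ± 0.12; adjusted p = 0.660, edgeR). Ndufc2, an accessory subunit of complex I, was at 56.6, 152, 112 and 122 against 160, 171, 179 and 142 (-0.47 ± 0.17; adjusted p = 0.521). Sdhd was at 108, 128, 133 and 123 against 160, 137, 164 and 132 (-0.21 ± 0.13; adjusted p = 0.722). Each of these 3 genes was lower in diabetic wounds on 4 of 4 days, as were 30 of the 89 members tested in macrophage-like cells (10.2% of all genes tested) and 35 of 87 in monocyte-like cells (10.1% of all genes tested). Atp5g3 was at 401, 470, 375 and 441 against 472, 498, 561 and 405, so that day 7 went the other way (-0.19 ± 0.13; adjusted p = 0.765). Cycs, at 97.7, 49.0, 66.7 and 52.9 against 58.2, 51.1, 58.4 and 51.8, was one of the few members with a positive value (0.13 ± 0.16; adjusted p = 0.887).

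In dendritic-like, T cell-like and neutrophil-like cells the days did not share a direction. Dendritic-like cells had ratios of 1.03, 0.857, 0.912 and 1.01 on days 1, 3, 5 and 7, and T cell-like cells 1.15, 0.803, 0.883 and 1.03. Neutrophil-like cells had 1.15, 0.987, 0.363 and 0.756, and the control library of day 5 held only 264 such cells. Unnamed cells were lower in diabetic wounds on 4 of 4 days (0.951, 0.907, 0.644 and 0.955), NK cell-like cells on the 2 days compared (0.847 and 0.981 on days 3 and 7), and mast cell-like cells were higher on both (1.36 and 1.11 on days 1 and 3). In edgeR 0 of 87 members were called in dendritic-like cells (0.0101% of all genes), 0 of 83 in T cell-like cells (0% of all genes) and 0 of 89 in neutrophil-like cells (0.0185% of all genes), with 1, 2 and 7 members at an unadjusted p under 0.05 (5.91%, 3.06% and 8.43% of all genes). DESeq2 called 0 of 87, 83 and 78 members (0.141%, 0.0112% and 0.536% of all genes), with 1, 0 and 6 at an unadjusted p under 0.05 (3.05%, 1.72% and 8.19% of all genes). The medians were -0.11, -0.12 and -0.29 for members, against 0.00, -0.01 and -0.01 for all genes. Positive were 16 of 87 members in dendritic-like cells (18.4%, against 50.1% of all genes), 16 of 83 in T cell-like cells (19.3%, against 49.0%) and 8 of 89 in neutrophil-like cells (8.99%, against 48.9%). The member with the smallest p among these tests was Ndufaf7 in neutrophil-like cells, which was higher in diabetic wounds on every day (0.76 ± 0.22; adjusted p = 0.460).

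**Figure D4:**
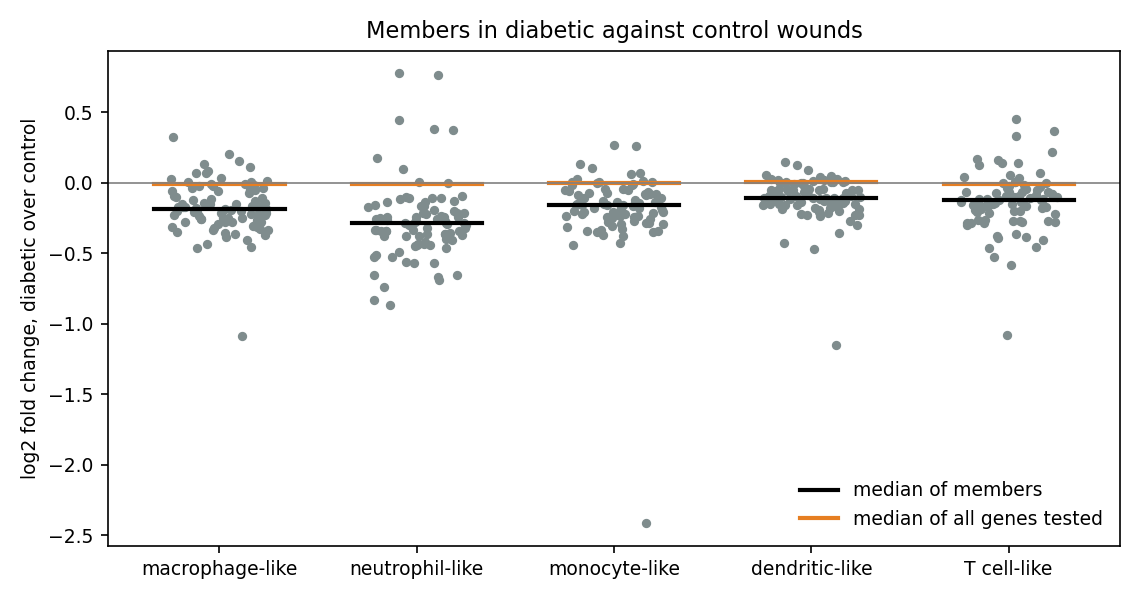
Log2 fold change of each tested member in diabetic over control wounds (vertical axis, edgeR with day as a block, 4 libraries in each group) in 5 cell classes (horizontal axis), with a black line at the median of members and an orange line at the median of all genes tested. The medians of members lie between -0.29 and -0.11 and those of all genes between -0.01 and 0.00, and 0 members passed an adjusted p of 0.05.

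Over days 1 to 7 macrophage-like cells showed 0 of 89 members called in the test of a linear change per day (edgeR, treatment as a covariate), where 0.700% of all 10148 genes were called. There were 4 members at an unadjusted p under 0.05, against 9.43% of all genes, and DESeq2 called 0 of 89 (1.29% of all genes), with 5 at an unadjusted p under 0.05 (10.5% of all genes). The median change was -0.01 per day on the log2 scale for members and 0.00 for all genes.

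Neutrophil-like cells, in contrast, had more member transcripts in the later libraries. The summed level was 2977, 5207, 3795 and 7919 CPM on diabetic days 1, 3, 5 and 7 and 2591, 5276, 10466 and 10475 in control. In the diabetic group day 5 was below day 3, while the control group was high from day 5 on. Of 88 members tested, 45 rose and 1 fell with day, where 21.9% of all 10195 genes rose and 20.3% fell, and the median change was 0.16 per day for members and 0.02 for all genes. When each cell was named singly, 4 of 78 members tested and 8.37% of all genes were called. By complex, 20 of 36 genes rose in complex I, 9 of 15 in complex V, 7 of 15 in complex IV, 5 of 9 in complex III, 2 of 4 in complex II and 2 of 8 among assembly factors. These calls rest on the first and last days: 1 of 89 members was called without day 1 (6.08% of all genes) and 0 of 86 without day 7 (1.00% of all genes, edgeR), where 25 were at an unadjusted p under 0.05 (22.7% of all genes). Leaving out 1 library gave 14 (control day 1), 19 (diabetic day 7), 23 (control day 7) and 29 (diabetic day 1), with 22.6%, 20.3%, 21.9% and 28.9% of all genes called.

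Ndufc2 was at 11.5, 36.7, 22.3 and 101 CPM on diabetic days 1, 3, 5 and 7 and at 10.9, 33.8, 123 and 115 in control (0.36 ± 0.07 per day; adjusted p = 0.00185, edgeR). Ndufa12, needed for a late step of complex I assembly, was at 6.76, 32.2, 22.9 and 72.6 and at 12.9, 32.9, 90.2 and 103 (0.33 ± 0.06; adjusted p = 0.00162). Both were lowest on day 1 and followed the dip of diabetic day 5. Ndufaf4 (0.41 ± 0.12), Ndufa9 (0.34 ± 0.08), Ndufa5 (0.33 ± 0.08), Ndufab1 (0.32 ± 0.07) and Ndufa10 (0.31 ± 0.05) had like slopes. Ndufaf4 was not called without diabetic day 1, control day 1 or control day 7 (adjusted p = 0.0593, 0.098 and 0.0581), and Ndufa5 was not called without control day 1 (0.057). With cells named singly, Ndufc2, Ndufa9, Ndufa5, Ndufab1 and Ndufa10 were not called (adjusted p = 0.0647 to 0.430), and the slope of Ndufa10 was 0.10. Atp5a1, the alpha subunit of the catalytic head, was at 56.4, 149, 113 and 277 in diabetic and 58.4, 130, 370 and 365 in control (0.24 ± 0.05; adjusted p = 0.00372). Sdha (0.19 ± 0.04), Uqcrc1 (0.17 ± 0.06) and Cyc1 (0.26 ± 0.07) also rose. The slope of Cox6a2 (0.48 ± 0.18; adjusted p = 0.0420) rests on 38 UMIs and was not called when any of the libraries diabetic day 3, diabetic day 7 or control day 1, 3, 5 or 7 was left out (adjusted p = 0.0645 to 0.274). DESeq2 did not call it either (adjusted p = 0.0895). Nor was it called in edgeR without day 1 (0.0737), without day 3 (0.11) or with members among the clustering genes (0.0527).

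Not every member followed. Ndufaf7 was the 1 member that fell with day (-0.33 ± 0.06; adjusted p = 0.00124, edgeR), with the levels given above, and it was not called without day 7 (adjusted p = 0.162) or with cells named singly (0.135). Ndufa2 was at 148, 180, 152 and 234 CPM in diabetic and 130, 198, 252 and 285 in control, and its slope was -0.02 ± 0.04 (adjusted p = 0.623) once library composition was scaled for. Cycs (-0.03 ± 0.04), Sdhd (0.02 ± 0.05), Cox8a (-0.03 ± 0.04) and Cox7a2 (0.02 ± 0.04) were likewise not called. The TCA cycle enzymes had 9 of 16 genes higher with day, while 10 of 17 glycolytic genes fell and 0 rose. These slopes are scaled for library composition, and the summed CPM of the glycolytic genes did not fall in the same way. It was 4359, 4810, 5063 and 4977 on diabetic days 1, 3, 5 and 7. In control it was 4861, 6191, 4822 and 4996.

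Transcripts of other cells moved with this result. The macrophage markers summed to 533, 3148, 2025 and 10484 CPM in neutrophil-like cells of diabetic days 1, 3, 5 and 7 and to 726, 2255, 8886 and 12193 in control. At least 1 UMI of these markers was found in 55.3% of the neutrophil-like cells of diabetic day 1 and in 1102 of 1102 of control day 7. The same share in T cell-like cells, which should lack these genes as well, went from 69.6% in diabetic day 1 to 100% in control day 7, at median depths of 3626 and 3778 UMIs against 2577 and 2363 in neutrophil-like cells. Ribosomal protein transcripts went from 12126 to 43124 CPM in diabetic and from 10675 to 55346 in control, with 64 of 84 genes higher with day. The neutrophil markers went from 73124 to 19337 in diabetic and from 59982 to 16120.3 in control.

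The clusters behind the neutrophil-like class changed with day as well. A cluster of 3109 cells was led by the immunoglobulin genes Ighg2b, Igkc, Jchain and Ighm, followed by Cxcr2 and Csf3r. Among its leading genes 4 were neutrophil markers. This cluster went from 6.33% of the class on diabetic day 1 to 56.7% on diabetic day 7 and from 4.46% to 89.8% in control. Its summed members were at 3746, 9371, 6572 and 8299 CPM on diabetic days 1, 3, 5 and 7 and at 2580, 7739, 10338 and 10407 in control. The cluster of 4918 cells was led by Ngp and Retnlg, with Mmp8, Cxcr2 and Lrg1 also among its leading genes. Its summed members were at 3328, 4734, 4092 and 8717 in diabetic and 2893, 4581, 11219 and 12045 in control. The cluster of 4761 cells led by Il23a and Il1a was at 2286, 3962, 3148 and 6954 and at 2146, 3290, 10214 and 8721. Day 7 was above day 1 within each of these 3 clusters in both groups, although not every later day was above an earlier one. The part of these other transcripts in the change of the members was not tested.

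**Figure D5:**
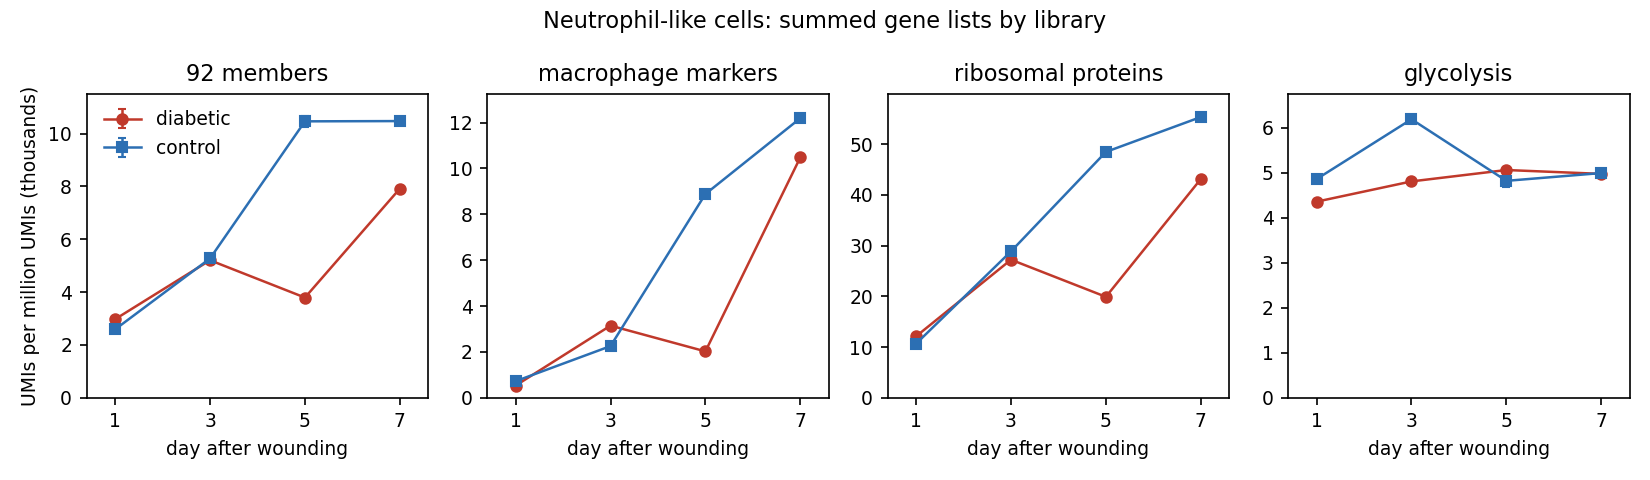
Summed level (vertical axes, in units of 1000 CPM, a scale for each panel) in neutrophil-like cells by day after wounding (horizontal axis) for the 92 members, the macrophage markers, the ribosomal proteins and the glycolytic genes, with red circles for diabetic and blue squares for control libraries and bars for the exact 95% Poisson interval. The members and the ribosomal proteins are highest in control days 5 and 7, the macrophage markers in day 7 of either group, all 3 are lower in diabetic day 5 than in diabetic day 3, and glycolysis stays between 4359 and 6191 CPM.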

How the data were processed

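Droplet or microwell libraries of CD45+ cells from 8 pools of wounds were read as deposited (the study's methods name BD Rhapsody, the series record 10X Genomics). The counts deposited by the authors are UMIs per gene and cell. The submitters' processing notes name fastp 0.20.1 and build mm9, while the study's methods name an Ensembl release of the mouse genome, and which build made the tables could not be settled from them, so that gene coordinates are given only for RefSeq promoter windows.

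Barcodes were required to show more than 200 genes and less than 20% of mitochondrial UMIs. Scaled to 10000 UMIs and log-transformed, 2000 variable genes that were neither members nor mitochondrial were reduced to 10 components and clustered over 30 neighbours at a resolution of 0.8 with leidenalg 0.10.2. A cluster took the name of the marker list with the highest score, if at least 3 of its markers were found in 10% of cells. Clusters 4 and 9, of 2861 and 1714 cells, led by Gm26917, stayed unnamed by a rule set after the clusters were seen. Doublets were not removed in the main analysis, since the caller in scanpy 1.11.5 marked 68 cells (0.193%). Sums without these cells were an alternative. Analyses used Python 3.11.15, numpy 2.4.6, scipy 1.17.1, pandas 2.3.3 and R 4.3.3.

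UMIs were summed per library and class with at least 20 cells and tested with the quasi-likelihood test of edgeR 4.0.16 (TMM scaling, Benjamini-Hochberg adjustment over all genes tested, threshold 0.05). DESeq2 1.42.0, another scaling, no filter on low counts, other cell filters and clusterings, and leaving out each day or library were the alternatives. Day was the block between groups, and library the block between classes. The steps were tested on simulated data: in the osteoclast-like comparison, over 10547 genes, 83.3% of genes changed by 1 and 97.9% of genes changed by 2 on the log2 scale were recovered. Between groups, a change of 1 was recovered in 71.6% of changed genes in macrophage-like cells (10317 genes run), 66.3% in monocyte-like cells (10078), 63.2% in dendritic-like cells (9651), 38.7% in neutrophil-like cells (10287) and 22.7% in T cell-like cells (8659). Between macrophage-like and neutrophil-like cells it was recovered in 54.2% (11220 genes) and between macrophage-like and monocyte-like cells in 81.6% (10684 genes). A change of 1 over the whole span of days was recovered in 25.8% in macrophage-like cells (9962 genes) and in 14.6% in neutrophil-like cells (9844 genes). Smaller changes, such as the medians of members between groups (-0.29 to -0.11), were not simulated. Intervals of sums are exact 95% Poisson intervals and cover counting error only. Sums have no test. Fold changes are scaled by TMM, so that they differ from ratios of CPM.

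The members, lists and comparisons were chosen with earlier results of these data known. Named in each comparison were up to 8 members with the largest rise and 8 with the largest fall among those called, the isoform families, Sdha, Sdhb, Sdhc, Sdhd, Cyc1, Cycs, Uqcrc1, Uqcrfs1, Ndufs1, Ndufv1, Ndufb8, Atp5a1, Atp5b and the most abundant member of each complex. Ndufc2 between groups and Ndufaf3, Ndufaf7, Ndufs3 and Atp5h were named after their values were seen.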

Additional observations from a re-analysis of the deposited data

How the results depend on the processing

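Over 34 pairs of a named gene and a comparison, 679 alternatives were run: 596 kept the call, 83 lost it and 0 reversed it. When cells were named singly, the members called were 76 between macrophage-like and neutrophil-like cells, 11 between macrophage-like and monocyte-like cells, 55 between osteoclast-like and macrophage-like cells and 4 in the change per day of neutrophil-like cells, and the median sum in osteoclast-like cells was 17674. Between macrophage-like and monocyte-like cells, 10 were called with any mitochondrial share, 12 with at least 500 genes per cell, 3 at a resolution of 1.6, 13 with the members among the clustering genes and 20 with the clusters led by Gm26917 named by markers. These last 2 alternatives, and leaving out single libraries, were chosen after seeing the data. With mitochondrial UMIs in the denominator the osteoclast-like sum was 28288. With ribosomal transcripts left out, the osteoclast-like, dendritic-like and T cell-like sums were 33837, 13609.5 and 14169. The cause of these shifts was not tested. Leaving out each day or library in turn gave 0 to 49 calls in the change per day of neutrophil-like cells, 3 to 8 between macrophage-like and monocyte-like cells, 3 to 53 between macrophage-like and neutrophil-like cells and 83 to 85 between osteoclast-like and macrophage-like cells. It gave 0 to 0 in the change per day of macrophage-like cells, and leaving out each day, the one leave-out run there, gave 0 to 0 in the 5 comparisons of diabetic with control wounds. The shares of all genes called are not given for all of these fits. The ranges therefore show only how the calls depend on single days and libraries. Without the replicate block (library or day) there were 31, 5 and 84 calls between macrophage-like and neutrophil-like, macrophage-like and monocyte-like, and osteoclast-like and macrophage-like cells, and 0 in the comparisons of groups. The main fits gave 42, 5 and 85 calls in the same 3 comparisons of classes. The shares of all genes called without the block are not given here, so that these counts describe the dependence on the block only. Depth limits the scarce isoforms most, Cox8b (6 UMIs) and Cox4i2 (66 UMIs) above all.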
